A study of Mus musculus with 12 samples.

Results

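The collagen genes of the mouse heart were followed through pressure overload and the loss of the long noncoding RNA Nron. A gene was taken as a collagen where it is protein-coding and its symbol has the form Col, a type number, the letter a and a chain number. Of 54146 gene records, 44 had such a symbol, and the 35 that reached 10 counts in 4 or more libraries were kept. They comprised 8 fibrillar collagens, 6 basement membrane collagens and 21 others, and all 35 were among the 15477 genes that entered the test. The 9 left out were Col2a1, Col6a4, Col6a5, Col9a1, Col10a1, Col11a1, Col17a1, Col19a1 and Col24a1. Col6a5 came closest, with 10 counts or more in 1 library, and Col9a1 had 0 counts in every library. Just inside the rule, Col4a6 reached 10 counts in exactly 4 libraries.

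Polyadenylated RNA was sequenced from 12 heart libraries in 3 groups of 4, all taken 6 weeks after surgery. TAC KO mice lacked Nron and underwent transverse aortic constriction (TAC), which narrows the aorta and loads the left ventricle. TAC WT mice were wild type for Nron and had the same constriction, and Sham WT mice were wild type with a mock operation. A sham-operated knockout group was not analysed here, so the knockout was compared with wild type under constriction alone. Age, sex, strain and the knockout's construction were not given in the labels. Whether the 4 libraries of a group were separate animals is not stated either, so a p-value here reflects the spread among these 4 libraries, which may be technical.

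Collagens are proteins whose chains wind around each other into a helix. Most are secreted, and some, such as Col13a1, are transmembrane. Fibrillar collagens are trimmed at their ends outside the cell and assemble into cross-linked fibrils, type IV chains form the network of basement membranes around cardiomyocytes and capillaries, and fibril-associated collagens sit on the surface of the fibrils. In the heart, fibroblasts are the main source of fibrillar collagen, and its build-up under pressure load is known as fibrosis.

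The letters that many of these transcripts share are the sites of the miR-29 family, microRNAs known to target collagen mRNAs. The mature sequences, from RefSeq (GRCm38.p6), are shown because all members pair through the same seed, bases 2 to 8, in capitals. Levels of these microRNAs were not measured here.
mmu-miR-29a-3p: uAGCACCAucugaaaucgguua
mmu-miR-29b-3p: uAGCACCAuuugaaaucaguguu
mmu-miR-29c-3p: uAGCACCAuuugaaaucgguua

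The seed's reverse complement, TGGTGCT, was searched on the transcript strand of the annotated 3' untranslated regions (GENCODE M21, GRCm38). It was present in 21 of the 35 collagens (60%), against 15.5% of 13389 tested protein-coding genes. The density was 0.692 sites per kilobase in collagens and 0.114 over those genes. By class, 6 of 8 fibrillar, 6 of 6 basement membrane and 9 of 21 other collagens held a match. The 23 bases around the first match of 7 members described by library further on are shown in transcript direction, with the match in capitals. Col4a2 had 2 matches and Col4a5 had 3.
Col1a1, chr11:94952530-94952552 (+ strand): ggaatttcTGGTGCTatagaagc
Col3a1, chr1:45348974-45348996 (+ strand): tgtctcaaTGGTGCTataataaa
Col5a2, chr1:45374958-45374980 (- strand): tttaatgaTGGTGCTaaaattat
Col4a1, chr8:11199754-11199776 (- strand): tcacaacaTGGTGCTactccccc
Col4a2, chr8:11448351-11448373 (+ strand): ggccacgtTGGTGCTtatccttc
Col4a5, chrX:141688245-141688267 (+ strand): cccaccaaTGGTGCTaatatcct
Col8a1, chr16:57624698-57624720 (- strand): ttctaccaTGGTGCTaatatcag

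A match is a stretch of letters and not evidence of binding. Col1a2, Col12a1, Col13a1, Col18a1 and Col6a6 had no match in the region searched.

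Promoters are shown for Col4a1 and Col4a2, which face away from each other at one shared locus, and for Col8a1, which was called in all 3 comparisons. Windows run from 250 bases before to 50 bases after the start of transcription (RefSeq, GRCm38.p6), with the letters of GC boxes (GGGCGG or CCGCCC) and CCAAT boxes (CCAAT or ATTGG), on either strand, in capitals.
Col4a1, chr8:11312777-11313076 (- strand): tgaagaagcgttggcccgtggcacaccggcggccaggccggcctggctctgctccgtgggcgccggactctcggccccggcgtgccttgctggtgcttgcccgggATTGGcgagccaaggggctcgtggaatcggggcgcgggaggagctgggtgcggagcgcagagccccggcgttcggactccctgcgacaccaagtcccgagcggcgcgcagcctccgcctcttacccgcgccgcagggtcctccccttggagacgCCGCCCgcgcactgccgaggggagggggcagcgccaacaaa
Col4a2, chr8:11312555-11312854 (+ strand): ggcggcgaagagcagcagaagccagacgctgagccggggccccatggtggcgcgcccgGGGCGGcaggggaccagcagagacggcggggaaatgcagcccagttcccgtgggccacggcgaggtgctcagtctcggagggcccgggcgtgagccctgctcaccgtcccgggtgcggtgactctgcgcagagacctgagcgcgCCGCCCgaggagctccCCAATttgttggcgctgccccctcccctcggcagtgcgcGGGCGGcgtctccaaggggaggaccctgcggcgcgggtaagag
Col8a1, chr16:57754688-57754987 (- strand): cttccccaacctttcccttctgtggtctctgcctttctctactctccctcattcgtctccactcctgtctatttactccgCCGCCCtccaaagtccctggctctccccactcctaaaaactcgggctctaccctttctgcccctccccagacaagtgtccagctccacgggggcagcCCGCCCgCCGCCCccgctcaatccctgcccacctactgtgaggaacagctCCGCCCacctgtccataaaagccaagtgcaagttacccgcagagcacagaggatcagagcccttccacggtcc

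The starts of Col4a1 and Col4a2 lay 21 bases apart on opposite strands, and their windows shared 78 bases. A GC box at 11312812 to 11312817 on chromosome 8 lay in both. The Col8a1 window held 4 GC boxes and no CCAAT box. The RefSeq table gave windows for 27 of the 35 members, not for Col12a1, Col14a1, Col1a1, Col22a1, Col26a1, Col4a3, Col5a2 and Col9a3. A GC box was found in 69.0% of the 29 windows, against 35.7% of all 32851 promoters in the table. A CCAAT box was found in 31.0% of the windows, against 37.4% of all promoters, and a TATA box (TATAAA or TTTATA) in 10.3%, against 13.6%.

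Libraries held 28565856 to 35777820 counts in TAC KO, 26288519 to 35945770 in TAC WT and 27596898 to 35491024 in Sham WT. Nron itself had 0 counts in all 12 libraries, which allows up to 3 counts (0.0820 to 0.1102 counts-per-million, CPM), so these counts do not check the knockout. The median log2 level, relative to the mean of all libraries, of the most GC-rich 20% of genes minus that of the most GC-poor 20% was 0.0851 to 0.339 in TAC KO, against -0.119 to -0.0496 in TAC WT and -0.0990 to -0.0341 in Sham WT. TAC KO 1 stood apart at 0.339. The 6 cardiomyocyte markers that check the tissue summed to 53387 to 56813 CPM in TAC KO, 53649.7 to 58377 CPM in TAC WT and 60568 to 70489 CPM in Sham WT. The longest minus the shortest 20% gave -0.203 to -0.119 in TAC KO, against -0.0204 to 0.160 in TAC WT and -0.00137 to 0.132 in Sham WT. Collagens had a median GC content of 56.1% and a median length of 6048 bases, against 49.6% and 3194.5 bases over all tested genes. The comparison of the knockout was therefore also made with these trends removed.

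Per kilobase of the longest complete coding transcript, the basement membrane chains Col4a1 and Col4a2 and the fibrillar Col3a1 had the highest levels in all 3 groups. Col4a1 averaged 163 ± 18.0 CPM per kilobase in TAC KO, 191 ± 28.2 in TAC WT and 131 ± 4.59 in Sham WT (SD, n = 4 each). Col3a1 averaged 83.8 ± 15.8 CPM per kilobase in TAC KO, 65.9 ± 16.7 in TAC WT and 38.4 ± 4.79 in Sham WT. The type I chains came next in both constricted groups, and in Sham WT Col15a1 lay between them. Col1a2 averaged 49.1 ± 8.12 CPM per kilobase in TAC KO, 47.0 ± 9.68 in TAC WT and 27.8 ± 2.79 in Sham WT, and Col1a1 41.4 ± 5.70, 41.2 ± 9.58 and 24.0 ± 3.18 in the same groups. Within each of the 12 libraries Col1a2 was above Col1a1, while the ranges of Col1a1 and Col1a2 over libraries overlapped in every group. The order depends on the length used. Per kilobase of the union of exons, Col1a1 was above Col1a2 in all 12 libraries, with means of 37.4 for Col1a1 and 21.1 for Col1a2 in TAC KO, and in Sham WT Col6a1 (22.3) was above Col3a1 (21.8). At the other end, 17 members in TAC KO, 16 in TAC WT and 18 in Sham WT were under 1 CPM per kilobase. Among the cartilage collagens, the type II chain Col2a1 reached at most 5 counts in any library.

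**Figure D1:**
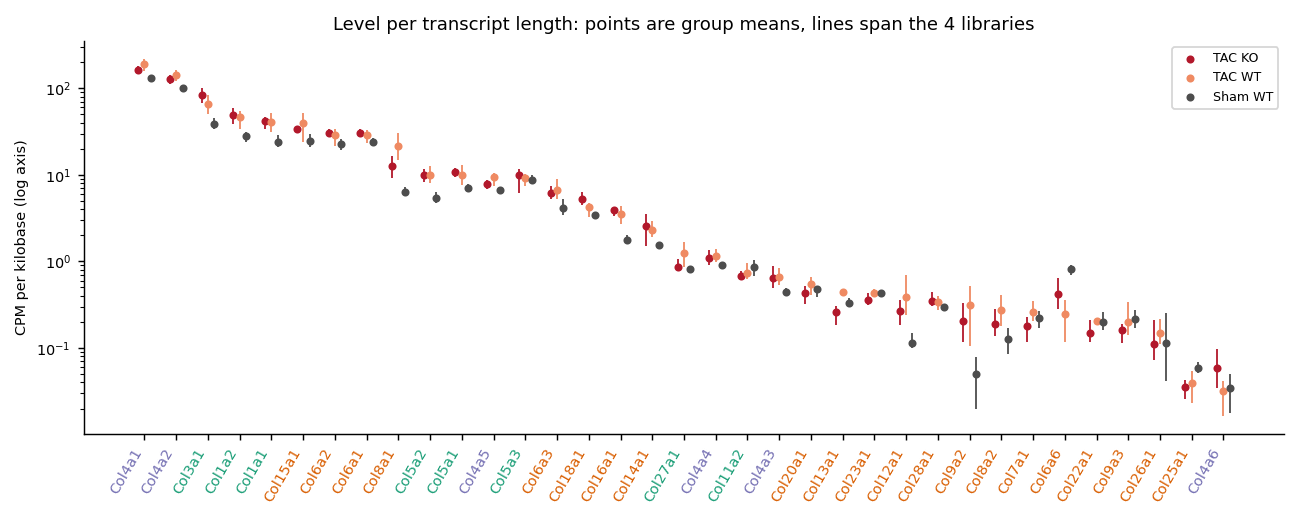
Mean level of each kept collagen in CPM per kilobase of the longest complete coding transcript on a log axis, with lines spanning the 4 libraries of a group, for TAC KO, TAC WT and Sham WT. Col4a1, Col4a2 and Col3a1 lead in all groups with this length, and levels span more than 3 orders of magnitude.

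Together the 35 genes took 0.382 ± 0.0306% of all counts in TAC KO, 0.409 ± 0.0809% in TAC WT and 0.265 ± 0.0161% in Sham WT (SD, n = 4 each). The library shares were 0.359, 0.384, 0.425 and 0.360% in TAC KO, 0.470, 0.318, 0.364 and 0.484% in TAC WT and 0.287, 0.262, 0.249 and 0.263% in Sham WT. Every TAC KO and TAC WT library was above every Sham WT library, and the TAC KO libraries lay inside the wide range of TAC WT, where libraries 1 and 4 were high and 2 and 3 low. Fibrillar collagens took 26.9 to 36.3% of the collagen counts in TAC KO, 25.4 to 28.7% in TAC WT and 23.5 to 26.0% in Sham WT. Basement membrane collagens took 46.2 to 57.0% in TAC KO, 52.9 to 59.1% in TAC WT and 56.0 to 60.2% in Sham WT. In bulk heart RNA, fewer cells of a type and less RNA per cell cannot be told apart.

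**Figure D2:**
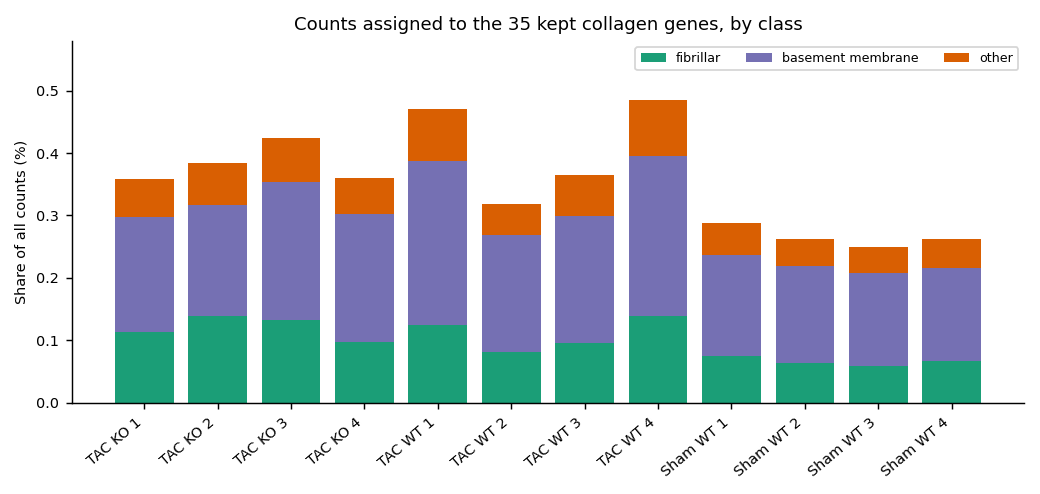
Percent of all counts in each library that fell on the kept collagens, stacked by class. The TAC KO and TAC WT bars all stand above the Sham WT bars, which end at 0.249 to 0.287%.

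Collagen genes were more often called higher than lower in TAC WT against Sham WT, in each class. In TAC WT against Sham WT, 17 of the 35 members were higher, 1 was lower and 17 did not pass edgeR's quasi-likelihood test at an adjusted p of 0.05 (Benjamini-Hochberg over all tested genes). That is 51.4% of the members, against 19.7% of all tested genes (9.67% called higher). At 1.5-fold or more, 12 rose and 1 fell, against 8.06% of all tested genes in either direction. Without Col9a2, which passed the count minimum through the constricted groups alone, and Col4a6, at its edge, 16 of 33 were higher and 1 lower, 11 and 1 at 1.5-fold or more, and 14 and 1 without overlap between the groups. Higher calls came from 6 of 8 fibrillar collagens (median log2 fold change 0.69), 4 of 6 basement membrane collagens (0.49) and 7 of 21 others (0.35), and the lower call from the others. The median over all tested genes was -0.00045. No overlap between the groups was seen for 16 of 35 members, 15 higher and 1 lower, against 24.7% of all tested genes. With 1 estimated surrogate variable in the fit, 9 members were higher in place of 17.

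Few collagens passed the test between the genotypes under constriction. In TAC KO against TAC WT, 1 member rose, 4 fell and 30 did not pass, so 14.3% of the members were called, against 33.0% of all tested genes (15.7% higher and 17.3% lower). At 1.5-fold or more, 0 rose and 2 fell, against 8.61% of all tested genes. Without Col9a2 and Col4a6, 1 of 33 rose and 4 fell, 0 and 2 at 1.5-fold or more. Col13a1, Col8a1, Col27a1 and Col4a5 fell and Col18a1 rose. The median log2 fold change was 0.036 for fibrillar, -0.10 for basement membrane and -0.26 for other collagens, and -0.0020 over all tested genes. Groups did not overlap for 1 member, Col13a1, against 28.5% of all tested genes. The 95% intervals of members at 10 CPM or more that were not called reached at most 0.70 on the log2 scale in either direction. Of the 5 calls, that of Col13a1 was kept under every alternative. The higher count was 0 without TAC KO 1 or TAC WT 2 and 2 without TAC KO 4 or TAC WT 4. The lower count was 2 without replicate 1 or 4 of TAC KO or replicate 1 of TAC WT and 1 without TAC WT 4. It was 6 without TAC WT 2, where Col15a1, Col4a1 and Col7a1 were called lower and Col4a5 was not. With the GC and length trends removed 2 rose and 2 fell.

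TAC KO against Sham WT differs in both genotype and operation, so their parts in a difference cannot be told apart. In TAC KO against Sham WT, 17 members rose, 1 fell and 17 did not pass, or 51.4% called, against 27.6% of all tested genes (12.8% higher and 14.8% lower). At 1.5-fold or more, 10 rose and 1 fell, against 7.57% of all tested genes. Without Col9a2 and Col4a6, 16 of 33 rose and 1 fell, 9 and 1 at 1.5-fold or more, and 16 were higher and 2 lower without overlap between the groups. The risers were 5 of 8 fibrillar collagens (median log2 fold change 0.68), 3 of 6 basement membrane collagens (0.34) and 9 of 21 others (0.35), beside a median of 0.00031 over all tested genes. Groups did not overlap for 19 of 35 members, 17 higher and 2 lower, against 30.7% of all tested genes. The 2 lower were Col6a6 and Col25a1. Counts of Col25a1 were 7, 9, 6 and 9 in TAC KO and 14, 12, 16 and 10 in Sham WT. Without its Sham WT libraries Col25a1 would not have reached the count minimum, so a lower level in TAC KO was built into its selection. This comparison shares its constricted libraries with the second and its sham libraries with the first, so the 3 sets of values are not independent. Without Sham WT 3, 10 members rose, and the single lower call, Col6a6, was lost without replicate 3 or 4 of TAC KO or replicate 4 of Sham WT, while 2 members fell without TAC KO 1.

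**Figure D3:**
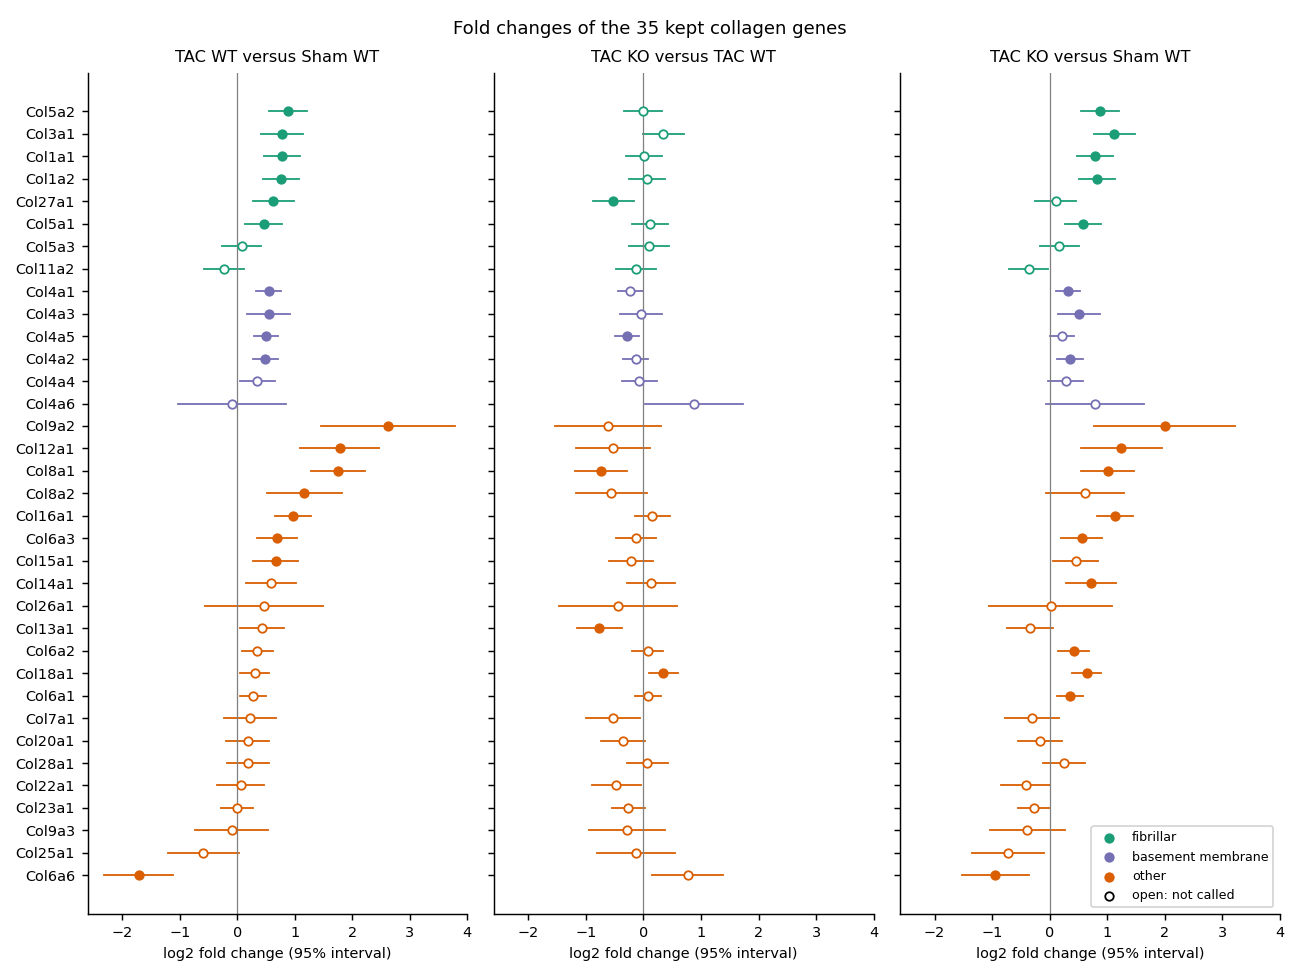
Log2 fold change of the 35 kept collagens, by class, in TAC WT over Sham WT, TAC KO over TAC WT and TAC KO over Sham WT, with 95% intervals and filled points for calls at an adjusted p under 0.05. Most points lie to the right of 0 in both comparisons with Sham WT, and most intervals cross 0 in TAC KO over TAC WT.

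Among the fibrillar collagens, the type I and type III chains that make up the bulk of cardiac fibrils were higher in TAC WT than in Sham WT and in TAC KO than in Sham WT. Col1a1 was at 240.0, 278, 264 and 201 CPM in TAC KO, 274, 184, 210.3 and 308 CPM in TAC WT and 169, 138, 125 and 137 CPM in Sham WT. All constricted libraries lay above the Sham WT libraries, and every TAC KO value fell inside the TAC WT range. The log2 fold change was 0.79 (SE 0.15, adjusted p = 0.00183) in TAC KO against Sham WT, and in TAC KO against TAC WT its 95% interval was -0.31 to 0.33. Col1a2, the partner chain of type I, was at 259.7, 314, 269 and 208 CPM in TAC KO, 286, 182, 243 and 296 CPM in TAC WT and 166, 148, 129.8 and 150.3 CPM in Sham WT. All constricted libraries lay above the Sham WT libraries, TAC KO 2 lay above every TAC WT library, and the other TAC KO libraries fell inside the TAC WT range. TAC WT against Sham WT gave a log2 fold change of 0.76 (SE 0.14, adjusted p = 0.00214), and the 95% interval was -0.24 to 0.37 in TAC KO against TAC WT.

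Col3a1, whose chain forms type III collagen on its own, was at 414, 561, 517 and 371 CPM in TAC KO, 423, 283, 292 and 468 CPM in TAC WT and 249.7, 205, 186 and 215 CPM in Sham WT. The Sham WT libraries were lowest, and 2 of the 4 TAC KO libraries were above every TAC WT library. The log2 fold change was 1.12 (SE 0.17, adjusted p = 0.000372) in TAC KO against Sham WT and 0.78 (SE 0.17, adjusted p = 0.00467) in TAC WT against Sham WT, the second not called with a surrogate variable (adjusted p = 0.0744). Between TAC KO and TAC WT it was 0.35 (SE 0.17, adjusted p = 0.123), not called. That difference was called without TAC WT 4 (log2 fold change 0.49, adjusted p = 0.0404), with a surrogate variable (0.53, adjusted p = 0.0384) and with no low-count filter (0.35, adjusted p = 0.0421).

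Type V collagen starts fibril assembly and limits fibril width. Its chain Col5a2 was at 54.9, 76.4, 74.9 and 59.1 CPM in TAC KO, 75.7, 53.4, 53.6 and 84.1 CPM in TAC WT and 42.0, 31.1, 33.5 and 38.3 CPM in Sham WT. The TAC KO values all lay inside the TAC WT range and above Sham WT, with log2 fold changes of 0.87 (SE 0.16, adjusted p = 0.00124) against Sham WT in TAC KO and 0.88 (SE 0.16, adjusted p = 0.00135) in TAC WT. Col5a1 was at 88.0, 91.9, 99.5 and 78.9 CPM in TAC KO, 92.4, 64.0, 64.4 and 109.6 CPM in TAC WT and 66.3, 57.2, 53.1 and 63.6 CPM in Sham WT. TAC KO was clear of Sham WT, while TAC WT 2 and 3 fell within the sham range, and the log2 fold change was 0.58 (SE 0.15, adjusted p = 0.011) in TAC KO against Sham WT and 0.46 (SE 0.15, adjusted p = 0.0419) in TAC WT against Sham WT. The TAC WT call was lost with the GC and length trends removed (adjusted p = 0.0513), with a surrogate variable (0.389), in the compared groups only (0.0611) and in 6 of the 8 fits that left out 1 of its libraries. Col5a3, the third chain, was at 38.1 to 71.0 CPM in TAC KO, 44.9 to 62.1 CPM in TAC WT and 48.7 to 61.2 CPM in Sham WT and was called in no comparison. The lowest of these values was that of TAC KO 1. The other TAC KO libraries, at 64.6 to 71.0 CPM, lay above every TAC WT and Sham WT library. Without TAC KO 1, Col5a3 was called in TAC KO against Sham WT (adjusted p = 0.0384).

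Col27a1, a fibrillar collagen known best from cartilage, was the fibrillar member that fell in TAC KO against TAC WT. It was at 5.98, 8.13, 6.44 and 5.93 CPM in TAC KO, 10.2, 6.59, 8.62 and 12.8 CPM in TAC WT and 6.69, 5.87, 5.97 and 6.05 CPM in Sham WT. TAC WT 4 and 1 were the highest, and TAC KO overlapped the sham range. The log2 fold change was -0.52 (SE 0.16, adjusted p = 0.0249) in TAC KO against TAC WT and 0.63 (SE 0.16, adjusted p = 0.015) in TAC WT against Sham WT. The first of these was not called with the GC and length trends removed (adjusted p = 0.0526), with a surrogate variable (adjusted p = 0.151), in a fit of the compared groups only (adjusted p = 0.0598) or without replicate 1 or 4 of either constricted group, and the second was not called with a surrogate variable (adjusted p = 0.196). Col11a2, a type XI chain of cartilage fibrils, was at 3.92, 3.76, 4.65 and 3.95 CPM in TAC KO, 3.75, 4.56, 5.73 and 3.86 CPM in TAC WT and 4.13, 4.58, 6.23 and 6.09 CPM in Sham WT, and the groups overlapped with no call.

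**Figure D4:**
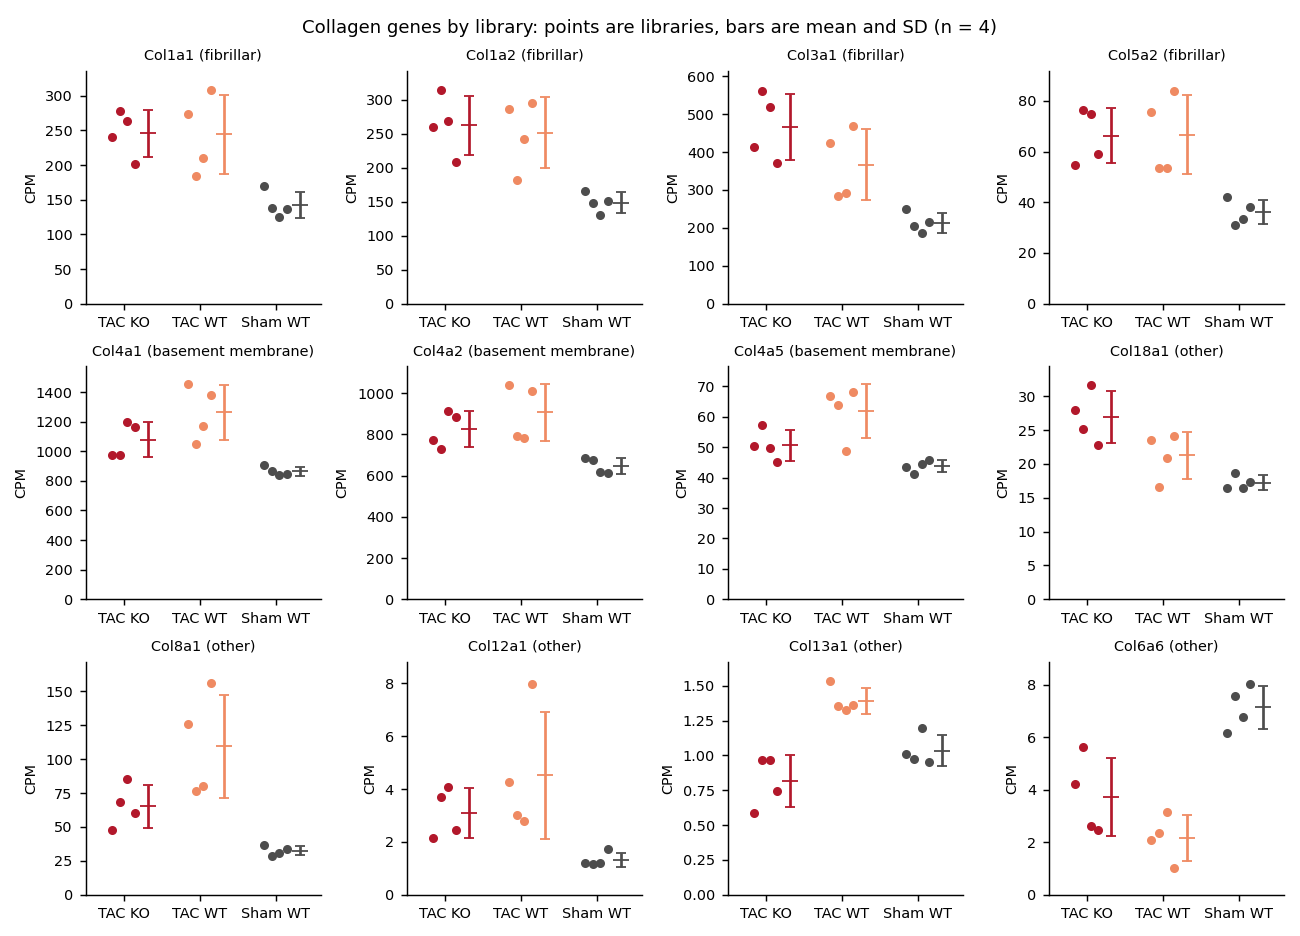
CPM of 12 collagens in each library, with bars for the mean and SD of 4 libraries, in TAC KO, TAC WT and Sham WT. Col1a1, Col3a1 and Col5a2 are higher in both constricted groups, Col8a1 and Col13a1 are highest in TAC WT, and Col6a6 is highest in Sham WT.

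The basement membrane chains Col4a1 and Col4a2, which pair in the common type IV network, were higher in TAC WT than in Sham WT and in TAC KO than in Sham WT. Col4a1 was at 974, 976, 1197 and 1162 CPM in TAC KO, 1455, 1048, 1173 and 1377 CPM in TAC WT and 906, 864, 836 and 848 CPM in Sham WT. Both constricted groups were above Sham WT without overlap, and TAC KO overlapped the lower part of TAC WT. Log2 fold changes were 0.55 (SE 0.10, adjusted p = 0.00166) in TAC WT against Sham WT, 0.32 (SE 0.10, adjusted p = 0.0294) in TAC KO against Sham WT and -0.23 (SE 0.10, adjusted p = 0.0927) in TAC KO against TAC WT. The call in TAC KO against Sham WT was lost in 5 of the 8 fits that left out 1 of its libraries (adjusted p = 0.0635 to 0.0826), and TAC KO against TAC WT was called without TAC WT 2 (log2 fold change -0.31, adjusted p = 0.0215). Col4a2 was at 775, 729.6, 913 and 884 CPM in TAC KO, 1039.8, 791, 784 and 1012 CPM in TAC WT and 684, 673, 616 and 611 CPM in Sham WT. The order of the groups was that of Col4a1, and its log2 fold change was 0.49 (SE 0.10, adjusted p = 0.00412) in TAC WT against Sham WT and 0.35 (SE 0.10, adjusted p = 0.0204) in TAC KO against Sham WT. The first was not called with a surrogate variable (adjusted p = 0.0559), and the second in 4 of the 8 fits that left out 1 of its libraries (adjusted p = 0.0574 to 0.0616). The starts of these genes overlap on opposite strands, and the strand setting of the counting is not given in the sources used here. How reads from the shared bases were assigned is therefore not known. The starts lay 21 bases apart, and the coding transcripts are 6615 bases (Col4a1) and 6450 bases (Col4a2) long. Col20a1 likewise shares exon bases with a gene on its own strand, and its counts are uncertain.

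Col4a5, on the X chromosome, was the basement membrane member lower in TAC KO against TAC WT. It was at 50.4, 57.4, 49.8 and 45.03 CPM in TAC KO, 66.9, 63.7, 48.7 and 68.1 CPM in TAC WT and 43.6, 41.3, 44.5 and 45.7 CPM in Sham WT. TAC WT 3 lay within the TAC KO range, and the other TAC WT libraries were above all TAC KO libraries. The log2 fold change was -0.29 (SE 0.10, adjusted p = 0.0359) in TAC KO against TAC WT and 0.50 (SE 0.10, adjusted p = 0.00282) in TAC WT against Sham WT. The first was not called with the GC and length trends removed (log2 fold change -0.18, adjusted p = 0.128), with upper-quartile scaling, a surrogate variable or the compared groups only, or in 6 of the 8 fits that left out 1 of its libraries. Col4a3, which joins Col4a4 and Col4a5 in a second network known from kidney, was at 5.19, 7.52, 4.22 and 4.90 CPM in TAC KO, 7.11, 4.59, 5.61 and 5.03 CPM in TAC WT and 3.57, 3.98, 3.60 and 4.18 CPM in Sham WT. Both constricted groups lay above Sham WT, and the log2 fold change was 0.55 (SE 0.17, adjusted p = 0.0381) in TAC WT and 0.51 (SE 0.17, adjusted p = 0.0422) in TAC KO. Each of these calls was lost in 6 of the 8 fits that left out 1 of its libraries (adjusted p = 0.0536 to 0.134 for TAC WT, 0.0588 to 0.134 for TAC KO), the TAC WT call also with a surrogate variable and the TAC KO call also with voom. Col4a6 was near the floor of detection, with counts of 10, 20, 12 and 8 in TAC KO, 4, 9, 8 and 6 in TAC WT and 4, 6, 10 and 9 in Sham WT, and was not called. Without its TAC KO libraries Col4a6 would not have reached the count minimum, so a higher level in TAC KO was built into its selection.

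Outside these classes, the short-chain collagen Col8a1, a network former of vessel walls and Descemet's membrane, had the smallest adjusted p of all members in TAC WT against Sham WT. It was at 47.4, 68.2, 85.3 and 60.3 CPM in TAC KO, 126, 76.2, 80.1 and 156 CPM in TAC WT and 36.9, 28.9, 30.6 and 33.7 CPM in Sham WT. Sham WT was lowest throughout, TAC WT 1 and 4 were highest, and TAC WT 2 and 3 lay below TAC KO 3. The log2 fold change was 1.75 (SE 0.22, adjusted p = 9.64e-05) in TAC WT against Sham WT and 1.01 (SE 0.21, adjusted p = 0.00374) in TAC KO against Sham WT. For TAC KO against TAC WT it was -0.74 (SE 0.21, adjusted p = 0.015), and without TAC KO 1, without TAC WT 4 or with a surrogate variable the call was lost (adjusted p = 0.0527, 0.0530 and 0.0584). With the GC and length trends removed the call was kept. Its partner chain Col8a2 rose in TAC WT against Sham WT, by 1.17 (SE 0.31, adjusted p = 0.0152), a call lost with a surrogate variable, without Sham WT 2 or without TAC WT 1 (adjusted p = 0.0926, 0.0528 and 0.0617).

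Among fibril-associated collagens, which coat the fibril surface, Col12a1 and Col16a1 rose in both constricted groups. Col12a1 was at 2.13, 3.70, 4.08 and 2.46 CPM in TAC KO, 4.26, 3.02, 2.81 and 7.97 CPM in TAC WT and 1.19, 1.15, 1.200 and 1.72 CPM in Sham WT. All constricted libraries were above all Sham WT libraries, and TAC WT 4 was far above the rest. Its log2 fold change was 1.78 (SE 0.32, adjusted p = 0.00162) in TAC WT against Sham WT, 1.25 (SE 0.33, adjusted p = 0.0125) in TAC KO against Sham WT and -0.53 (SE 0.30, adjusted p = 0.19) in TAC KO against TAC WT, the last with an interval of -1.17 to 0.11. Col16a1 was at 21.02, 20.8, 21.9 and 17.5 CPM in TAC KO, 21.2, 14.2, 14.7 and 23.0 CPM in TAC WT and 10.6, 8.36, 9.31 and 8.80 CPM in Sham WT. Sham WT was lower without overlap, and the log2 fold changes were 1.13 (SE 0.15, adjusted p = 0.000147) in TAC KO and 0.97 (SE 0.15, adjusted p = 0.000413) in TAC WT. Col14a1 was called in TAC KO against Sham WT, at 0.72 (SE 0.20, adjusted p = 0.0173), and not in TAC WT, at 0.59 (SE 0.20, adjusted p = 0.0549). The first call was lost with voom and without TAC KO 2 (adjusted p = 0.0715 and 0.0534), and TAC WT was called with DESeq2, voom, no low-count filter or the compared groups only and without TAC WT 2 (adjusted p = 0.00518 to 0.0381). Col9a2 passed the count filter only through the constricted groups, so a difference from Sham WT was built into its selection. Its counts were 15, 30, 20 and 12 in TAC KO, 55, 10, 20 and 34 in TAC WT and 4, 8, 2 and 5 in Sham WT.

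Col18a1, a multiplexin of basement membranes whose end fragment is endostatin, was the member that rose in TAC KO against TAC WT. It was at 28.0, 25.1, 31.7 and 22.8 CPM in TAC KO, 23.5, 16.5, 20.8 and 24.2 CPM in TAC WT and 16.5, 18.7, 16.4 and 17.3 CPM in Sham WT. TAC KO 4 lay below TAC WT 1 and 4, and the other TAC KO libraries were above every wild-type library. Log2 fold changes were 0.34 (SE 0.12, adjusted p = 0.0373) in TAC KO against TAC WT and 0.64 (SE 0.12, adjusted p = 0.00147) in TAC KO against Sham WT, and 0.30 in TAC WT against Sham WT, not called. The first was not called with voom (adjusted p = 0.111), in the compared groups only (adjusted p = 0.0749) or without replicate 1 or 3 of TAC KO or replicate 2 or 3 of TAC WT. Col18a1 in TAC WT against Sham WT was called with voom (adjusted p = 0.0303) and without TAC WT 2 (adjusted p = 0.0124). Its relative Col15a1 rose in TAC WT against Sham WT, at 0.67 (SE 0.18, adjusted p = 0.0186), with overlapping ranges. That call was lost with a surrogate variable (adjusted p = 0.249) and in 4 of the 8 fits that left out 1 of its libraries (adjusted p = 0.0559 to 0.0655). In TAC KO, Col15a1 was at 163 to 187 CPM, above the Sham WT range of 110 to 155 CPM. The log2 fold change of 0.45 was not called (adjusted p = 0.0783). It was called with DESeq2, voom, no low-count filter or the compared groups only (adjusted p = 0.00521 to 0.0415).

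Col13a1, a transmembrane collagen of cell adhesion sites such as the neuromuscular junction, gave the call in TAC KO against TAC WT that held under every alternative. It was at 0.584, 0.964, 0.969 and 0.744 CPM in TAC KO, 1.53, 1.35, 1.33 and 1.36 CPM in TAC WT and 1.01, 0.974, 1.200 and 0.954 CPM in Sham WT. Each TAC WT library was above every other library, and TAC KO overlapped the lower part of the Sham WT range. These levels rest on few counts: 17, 30, 34 and 26 in TAC KO, 56, 44, 45 and 37 in TAC WT and 34, 34, 42 and 26 in Sham WT. The log2 fold change was -0.77 (SE 0.18, adjusted p = 0.00586) in TAC KO against TAC WT. In TAC WT against Sham WT it was 0.43 (SE 0.18, adjusted p = 0.106), not called except with voom (adjusted p = 0.0402).

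Col6a6, an alternative chain of the beaded filaments of type VI, was the member lower than Sham WT in both constricted groups. It was at 4.23, 5.63, 2.62 and 2.46 CPM in TAC KO, 2.08, 2.34, 3.16 and 1.03 CPM in TAC WT and 6.18, 7.59, 6.77 and 8.03 CPM in Sham WT. Every constricted library was below every Sham WT library, with log2 fold changes of -1.71 (SE 0.28, adjusted p = 0.000798) in TAC WT and -0.94 (SE 0.27, adjusted p = 0.0185) in TAC KO. TAC KO against TAC WT gave 0.77 (SE 0.29, adjusted p = 0.0542), and it was called with upper-quartile scaling, DESeq2, no low-count filter or the trends removed, and without replicate 3 or 4 of TAC KO or replicate 3 of TAC WT. The main chains Col6a1, Col6a2 and Col6a3 rose in TAC KO against Sham WT, by 0.35, 0.42 and 0.56 on the log2 scale (adjusted p = 0.0231, 0.0245 and 0.0222). These calls were lost in 3, 3 and 4 of the 8 fits that left out 1 of their libraries. In TAC WT against Sham WT, Col6a3 was called, at 0.69 (SE 0.17, adjusted p = 0.00926), except with a surrogate variable (adjusted p = 0.131). There Col6a1 and Col6a2 were at 0.27 and 0.35 (adjusted p = 0.0802 and 0.0681), not called. Both were called with voom, with no low-count filter and without TAC WT 2, and Col6a2 also with DESeq2. Between TAC KO and TAC WT, Col6a1, Col6a2 and Col6a3 were at 0.075, 0.070 and -0.13, not called.

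Ratios of chains within a library do not depend on scaling, and 7 were tested in the 3 comparisons. The ratio of Col1a1 to Col3a1 counts was 0.580, 0.496, 0.510 and 0.541 in TAC KO, 0.648, 0.651, 0.720 and 0.658 in TAC WT and 0.678, 0.674, 0.673 and 0.638 in Sham WT. Every TAC KO value lay below every wild-type value, with a mean log2 difference of -0.33 from TAC WT and -0.33 from Sham WT. By the exact two-sided permutation test, each gave p = 0.0286, the smallest that 4 against 4 libraries allow, and 0.15 after adjustment over 21 tests. The ratio of Col5a1 to Col5a2 was 1.604, 1.202, 1.33 and 1.34 in TAC KO, 1.22, 1.198, 1.202 and 1.304 in TAC WT and 1.58, 1.84, 1.58 and 1.66 in Sham WT. TAC WT was below Sham WT without overlap (log2 difference -0.43, exact permutation p = 0.0286, adjusted 0.15). The ratio of Col6a3 to Col6a1 was 0.402, 0.404, 0.517 and 0.443 in TAC KO, 0.449, 0.497, 0.440 and 0.654 in TAC WT and 0.435, 0.391, 0.343 and 0.351 in Sham WT. TAC WT was above Sham WT without overlap (log2 difference 0.41, exact permutation p = 0.0286, adjusted 0.15). Col4a1 to Col4a2 stayed between 1.26 and 1.5 in all 12 libraries. No ratio passed at an adjusted 0.05, which could be reached only if most of the 21 tests stood at that smallest p, so the adjusted values say nothing about whether ratios differed.

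**Figure D5:**
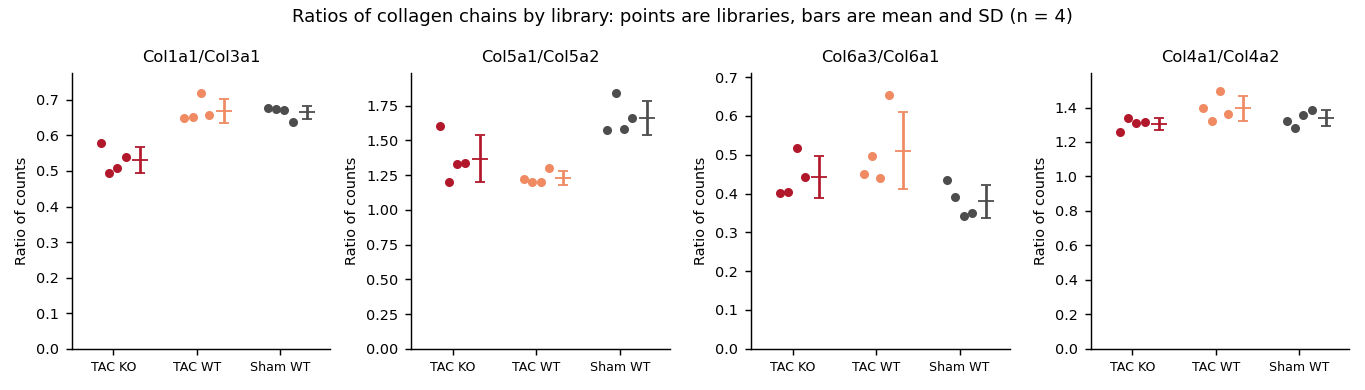
Ratios of counts of 2 collagen chains in each library, with bars for mean and SD (n = 4), in TAC KO, TAC WT and Sham WT. Col1a1 over Col3a1 is lower in all 4 TAC KO libraries, and Col5a1 over Col5a2 is lower in TAC WT than in Sham WT.

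Among the 21 members with a miR-29 match, 13 rose and 0 fell in TAC WT against Sham WT, and among the 14 without, 4 rose and 1 fell, where 19.7% of all tested genes were called, 9.67% higher. Between TAC KO and TAC WT, 0 rose and 3 fell with a match, and 1 rose and 1 fell without, where 15.7% of all tested genes rose and 17.3% fell. In TAC KO against Sham WT, 11 rose and 0 fell with a match, and 6 rose and 1 fell without, where 12.8% of all tested genes rose and 14.8% fell. Col9a2, which had no match, was among the risers in both comparisons with Sham WT. A difference from Sham WT was built into its selection. The counts above are descriptions, since matches and classes overlap and levels differ between the lists.

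Enzymes that fold and modify collagen chains were also measured. Of 16 tested, 6 rose and 1 fell in TAC WT against Sham WT, 2 rose and 5 fell in TAC KO against TAC WT, and 5 rose and 2 fell in TAC KO against Sham WT. That is 43.8% called in each comparison, against 19.7%, 33.0% and 27.6% of all tested genes in the same order. P4ha1, a prolyl hydroxylase subunit, averaged 75.7 ± 8.11 CPM in TAC KO, 153 ± 22.6 CPM in TAC WT and 82.4 ± 5.88 CPM in Sham WT, with a log2 fold change of -1.02 (SE 0.10, adjusted p = 2.28e-05) in TAC KO against TAC WT and 0.89 (SE 0.10, adjusted p = 5.13e-05) in TAC WT against Sham WT. P3h2, which hydroxylates proline at another position, changed by -1.02 (SE 0.16, adjusted p = 0.000496) and 1.42 (SE 0.17, adjusted p = 5.89e-05) in the same comparisons. P3h4, a non-catalytic relative of the prolyl hydroxylases, went the other way, by 0.43 (SE 0.08, adjusted p = 0.00114) in TAC KO against TAC WT and -0.67 (SE 0.08, adjusted p = 5.89e-05) in TAC WT against Sham WT. Of 14 genes of procollagen trimming and cross-linking, 8 rose in TAC WT against Sham WT and 0 fell (57.1% called, against 19.7% of all tested genes). Among them were Pcolce, an enhancer of the trimming protease, at 0.55 (SE 0.09, adjusted p = 0.00095), and the cross-linking oxidase Loxl1, at 0.58 (SE 0.10, adjusted p = 0.00144). Between TAC KO and TAC WT, 2 of these 14 rose and 1 fell (21.4% called, against 33.0% of all tested genes), and 5 rose and 1 fell in TAC KO against Sham WT (42.9%, against 27.6%).

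Of 9 collagen receptors, 0 rose and 5 fell in TAC KO against TAC WT (55.6% called, against 33.0% of all tested genes), 2 rose and 0 fell in TAC WT against Sham WT (22.2%, against 19.7%), and 1 rose and 3 fell in TAC KO against Sham WT (44.4%, against 27.6%). The receptor kinase Ddr2 changed by -0.48 (SE 0.08, adjusted p = 0.000781) and the integrin subunit Itgb1 by -0.48 (SE 0.07, adjusted p = 0.00021) in TAC KO against TAC WT. Mrc2, which takes up collagen fragments, changed by 0.76 (SE 0.13, adjusted p = 0.00134) in TAC WT against Sham WT.

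Markers of cell types were measured in the same libraries, and their counts are to be read against the 19.7% of all tested genes called in TAC WT against Sham WT, 33.0% in TAC KO against TAC WT and 27.6% in TAC KO against Sham WT. Activated fibroblast markers rose in 6 of 8 tested in TAC WT against Sham WT and 6 of 8 in TAC KO against Sham WT, and in TAC KO against TAC WT 0 rose and 1, Meox1, fell. Their summed level was 357 to 589 CPM in TAC KO, 438 to 643 CPM in TAC WT and 250.98 to 307 CPM in Sham WT. General fibroblast markers summed to 1732 to 2024 CPM in TAC KO, 1436 to 1754 CPM in TAC WT and 1359.9 to 1607 CPM in Sham WT, with 4 of 9 higher in TAC KO against TAC WT. A large part of that sum was Gsn alone, which averaged 1083 CPM in TAC KO, 841 CPM in TAC WT and 875 CPM in Sham WT. Macrophage markers summed to 256 to 353 CPM in TAC KO, 178 to 267 CPM in TAC WT and 188 to 237 CPM in Sham WT, with 4 of 7 higher in TAC KO against TAC WT. Endothelial markers summed to 1131 to 1293 CPM in TAC KO, 1297 to 1607 CPM in TAC WT and 1266 to 1476 CPM in Sham WT, and 2 of 8 fell in TAC KO against TAC WT. Mural markers rose in 3 of 8 and fell in 1 in that comparison, cardiomyocyte markers rose in 2 of 6, and epicardial markers rose in 1 and fell in 1 of 3. Of 2 cartilage markers tested 1 fell, and of 4 Schwann cell markers 1 fell. In TAC WT against Sham WT, 3 fibroblast markers rose and 1 fell, 1 mural marker rose and 1 fell, 1 cartilage marker rose, 3 cardiomyocyte markers and 1 Schwann cell marker fell, and 0 of 7 macrophage, 0 of 8 endothelial and 0 of 3 epicardial markers passed edgeR's test. In those lists 0, 2 and 0 markers had an unadjusted p under 0.05, DESeq2 called 0, 0 and 0, and voom called 0, 1 and 0. Against Sham WT, TAC KO had 6 fibroblast, 5 macrophage, 4 mural and 1 cartilage marker higher, and 3 cardiomyocyte, 2 endothelial, 2 mural, 1 epicardial and 1 Schwann cell marker lower. No listed marker was at 0 in every library, and 4 of 6 cartilage markers were too low to test. Their part in the collagen differences was not tested.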

How the data were processed

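Polyadenylated RNA from 12 mouse heart libraries, made from 250 ng of RNA each per the labels, was analysed in 3 groups of 4. The labels number no replicates, so libraries are numbered 1 to 4 within a group in deposit order, as names only. The deposited values were raw whole-number counts per gene, 1 file per library with 54146 gene records. The submitters' processing notes list STAR, Trim Galore 0.5.0, bcl2fastq, MultiQC 1.7, featureCounts 1.6.4, FastQC 0.11.8, DESeq2, StringTie 1.3.5 and build GRCm38; their roles, the annotation release and the strand setting are not given in the sources used here.

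Identifiers were matched without version to GENCODE M21, which named 54079 records. Counts were tested in R 4.3.3 with edgeR 4.0.16 (quasi-likelihood F-test, TMM scaling, filterByExpr, all 12 libraries in 1 fit) and Benjamini-Hochberg adjustment over 15477 genes; the common biological coefficient of variation was 0.113. CPM are TMM-scaled counts-per-million, and CPM per kilobase divides by the longest complete coding transcript. Ratios used exact permutation in SciPy 1.17.1; figures used matplotlib 3.10.9. The alternatives were RLE and upper-quartile scaling, DESeq2 1.42.0, limma 3.58.1 voom with quality weights, no filter, 1 CPM in 4 libraries, the compared groups only, removal of GC and length trends (splines, 5 degrees of freedom), 1 surrogate variable (sva 3.50.0), a 1.5-fold minimum and leaving out each library. The edgeR, DESeq2 and voom fits were checked on simulated counts with known changes. Replicates differed by more than sampling noise, with chi-square per degree of freedom of 4.40 to 34.9. Intervals cover counting and replicate spread of these libraries only, and reads are not independent molecules.

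The members and lists were chosen with earlier results of these data known. Library values are given for Col1a1, Col3a1, Col8a1, Col12a1 and up to 4 members of smallest p per class and comparison; other members are given by counts or range, and other genes by up to 3 of smallest p per list.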

Additional observations from a re-analysis of the deposited data

Results flagged for a closer look

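Of 108 groups of 4 libraries examined, 5 held a library far from the other 3 in CPM of a collagen, and chance gives about 1 in 20. Col13a1 was at 1.53 CPM in TAC WT 1, against 1.33 to 1.36 in the other TAC WT libraries. Col22a1 was at 1.64 CPM in TAC WT 1, against 1.87 to 1.89 in the others. Col9a3 was at 1.03 CPM in TAC WT 3, against 0.431 to 0.478 in the others. Col26a1 was at 0.579 CPM in TAC KO 2, against 0.200 to 0.240 in the other TAC KO libraries. Col12a1 was at 1.72 CPM in Sham WT 4, against 1.15 to 1.200 in the other Sham WT libraries.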

How the results depend on the processing

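No called collagen changed sign under any alternative. Leaving the 1.5-fold minimum aside, 10 of 18 calls were kept under every setting run in TAC WT against Sham WT. The same held for 1 of 5 in TAC KO against TAC WT and 9 of 18 in TAC KO against Sham WT. Of the kept calls, Col4a1 (1.46-fold) and Col4a5 (1.41-fold) in TAC WT against Sham WT did not reach the 1.5-fold minimum. Neither did Col5a1 in TAC KO against Sham WT (log2 fold change 0.578). In TAC WT against Sham WT, 9 members rose with 1 surrogate variable in place of 17, and 13 to 21 with a library left out. For TAC KO against TAC WT, the 1 higher call became 2 with upper-quartile scaling, DESeq2, the GC and length trends removed or 1 surrogate variable, 3 with no low-count filter, 0 with voom, the compared groups only or a 1.5-fold minimum, and 0 to 2 with a library left out. The 4 lower calls became 2 with the trends removed, the compared groups only or a 1.5-fold minimum, 1 with 1 surrogate variable, and 1 to 6 with a library left out. In TAC KO against Sham WT, 10 members rose at a 1.5-fold minimum and 10 to 17 with a library left out, and the lower call became 2 with voom and 0 to 2 with a library left out. Per non-mitochondrial count, the summed share was 0.475% in TAC KO, 0.501% in TAC WT and 0.338% in Sham WT. The cause was not tested. Low-level members such as Col4a6 and Col26a1 are limited by depth.

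Signs of small, uncalled values turned as follows with a library left out, in log2 units. TAC WT against Sham WT: Col22a1 -0.031 to 0.20, Col23a1 -0.068 to 0.037, Col4a6 -0.30 to 0.14, Col9a3 -0.50 to 0.037, and the ratios Col1a1/Col1a2 -0.018 to 0.070 and Col1a1/Col3a1 -0.029 to 0.021. TAC KO against TAC WT: Col11a2 -0.21 to 0.0064, Col14a1 -0.069 to 0.32, Col1a1 -0.10 to 0.14, Col1a2 -0.066 to 0.15, Col25a1 -0.32 to 0.033, Col28a1 -0.066 to 0.15, Col4a3 -0.24 to 0.10, Col4a4 -0.18 to 0.026, Col5a2 -0.10 to 0.12, Col5a3 -0.0013 to 0.26, Col6a1 -0.018 to 0.15, Col6a2 -0.050 to 0.15, Col6a3 -0.23 to 0.045, Col9a3 -0.42 to 0.11, and the ratios Col6a1/Col6a2 -0.033 to 0.031 and Col8a1/Col8a2 -0.33 to 0.051. TAC KO against Sham WT: Col26a1 -0.44 to 0.67, Col27a1 -0.0028 to 0.16 and the ratio Col1a1/Col1a2 -0.048 to 0.0059. Under other settings in TAC WT against Sham WT, Col23a1 was 0.024 with voom, 0.0021 at 1 CPM and 0.12 with a surrogate variable, which gave Col28a1 -0.055, Col4a6 0.12, Col5a3 -0.26 and Col9a3 0.041. Between TAC KO and TAC WT, voom gave Col14a1 -0.18, Col1a1 -0.095, Col1a2 -0.061, Col6a1 -0.0034, the surrogate variable gave Col14a1 -0.0093, Col15a1 0.016, Col5a2 0.20, Col6a3 0.10, removal of the trends gave Col25a1 0.035, Col4a3 0.11, Col4a4 0.089, Col5a2 0.12, and upper-quartile scaling gave Col5a2 0.019. Against Sham WT, in TAC KO, removal of the trends gave Col26a1 -0.11. No paired analysis was possible because the labels carry no replicate numbers, and the numbers used here are only names.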
